A study of Mus musculus with 18 samples.

Results

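Dorsal root ganglia (DRG) collected during recovery were compared with DRG of mice with no disease across all expressed genes. The comparison used 6 of the 18 libraries of the series, chosen by their tissue and stage labels, with 3 libraries at each stage. All were bulk RNA libraries from DRG of segments L3-L5 of the C57BL/6 mouse strain, and the labels give no transgene, drug or other genotype. The recovery ganglia were taken at PID42, and 3 further DRG libraries from peak disease (PID21) entered the same fit and are given here as levels with no test. No source used here gives how the disease was induced, what PID stands for, the age and sex of the mice or how many mice each library holds. Whether each library is a separate animal is not labelled either, and the p-values therefore refer to the spread among these libraries, which may be technical. Per its title, the series concerns sensory neurons that lose their contacts with glia and how far this varies by cell type.

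Dorsal root ganglia hold the cell bodies of the sensory neurons whose axons run in peripheral nerves, each body wrapped in satellite glia and the axons near it in myelinating or nonmyelinating Schwann cells. When its axon is damaged, a sensory neuron switches on a set of genes headed by the transcription factor Atf3, makes neuropeptides it normally does not make, and lowers many of its channels and receptors. Macrophages that live in the ganglion or enter it from the blood take up debris, present antigen through MHC class II and respond to signals such as colony-stimulating factor from injured neurons.

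The tissue label was checked against neuronal markers. None of the 14 pan-neuronal genes examined was at 0 in all 6 libraries and the list had a summed level of 6571 to 9013 CPM, the read count scaled to a common library size by the TMM method. Total counts per library ranged from 18060700 to 22531371, so a gene at 1 CPM rested on about 20 reads in a library. DRG recovery replicate 1 stood apart from recovery replicates 2 and 3 in a principal component analysis of the 500 genes that varied most. It lay at 9.70 on PC1, against 10.7 to 21.1 for the no disease libraries and -19.6 and -16.1 for the other two recovery libraries. Its nearest library was no disease replicate 1, and the reverse also held. The median absolute log2 difference per gene was 0.247 and 0.246 between recovery replicate 1 and replicates 2 and 3, against 0.108 between replicates 2 and 3 and 0.134 to 0.139 among the no disease libraries. The gene lists and the genes named below are therefore also given without recovery replicate 1. Genes holding ribosomal RNA reads held 6.56% to 11.5% of the counts in no disease libraries but 3.62% to 4.84% in recovery libraries, so this share moved with the stage. Its part in the results was not tested beyond leaving those genes out, which gave 375 genes higher and 144 lower against the 402 and 121 below.

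**Figure D1:**
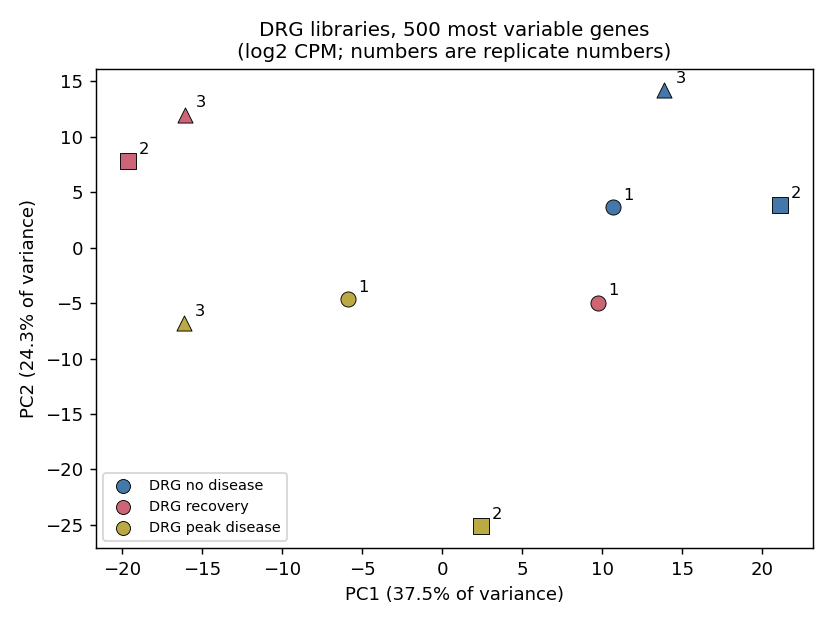
First and second principal components of log2 CPM over the 500 most variable genes in the 9 DRG libraries, coloured by stage and numbered by replicate. Recovery replicate 1 (PC1 of 9.70) lies beside the no disease libraries, whereas recovery replicates 2 and 3 lie at -19.6 and -16.1.

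In recovery, 402 of 16482 genes tested were higher than with no disease and 121 were lower at an adjusted p under 0.05 by edgeR's quasi-likelihood test, which is 2.44% and 0.734% of the genes tested. The median log2 fold change of all genes tested was 0.0040. All 402 and all 121 genes had groups that did not overlap, as had 2259 genes tested (13.7%) with recovery higher and 2113 (12.8%) with recovery lower. Of the 402 genes, recovery replicate 1 was the recovery library nearest to the no disease mean for 304, and the median log2 change was 0.59 in replicate 1 and 0.88 in both replicate 2 and replicate 3. Of the 121 lower genes it was nearest for 85, with a median change of 0.31, 0.46 and 0.40 on the log2 scale in replicates 1, 2 and 3. Without recovery replicate 1, 1758 genes were higher (10.5% of 16666 tested) and 1864 lower (11.2%), and these included all 402 and all 121. The common biological coefficient of variation was 0.137 with that library and 0.107 without it.

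The counts of called genes turned on every library. Without recovery replicate 2, 4 genes were higher and 0 lower; without recovery replicate 3, 5 and 2; without no disease replicate 1, 2 and 0; without no disease replicate 2, 2 and 1; and without no disease replicate 3, 42 and 9. At an unadjusted p under 0.05 by edgeR the same 5 fits still gave 1345 to 1773 genes higher and 1027 to 1347 lower, against 2152 and 1545 with every library. Of the 57 called genes named by rule here, all 57 were called without recovery replicate 1, 23 without no disease replicate 3 and at most 3 without any other library, and none changed direction. Among those 57 genes, Nts alone passed with each of the 6 libraries left out. The adjusted p of the others rose above 0.05 without at least 1 library, and the range is given with each group of genes below.

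**Figure D2:**
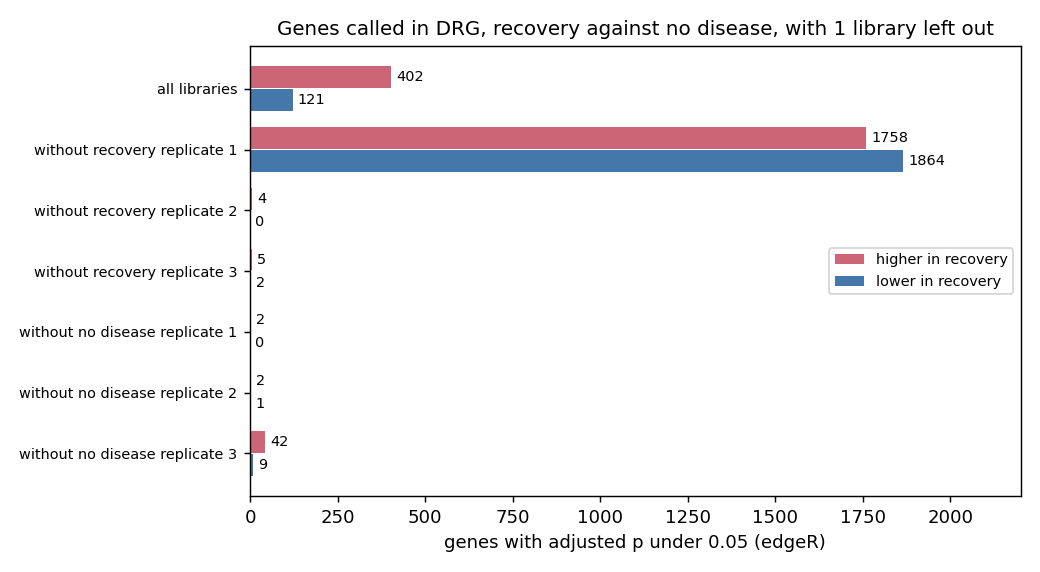
Number of genes with an adjusted p under 0.05 in the comparison of DRG recovery with no disease, with all libraries and with each of the 6 libraries left out in turn. Leaving out recovery replicate 1 gives 1758 genes higher and 1864 lower, and leaving out any other library gives at most 42 higher and 9 lower.

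**Figure D3:**
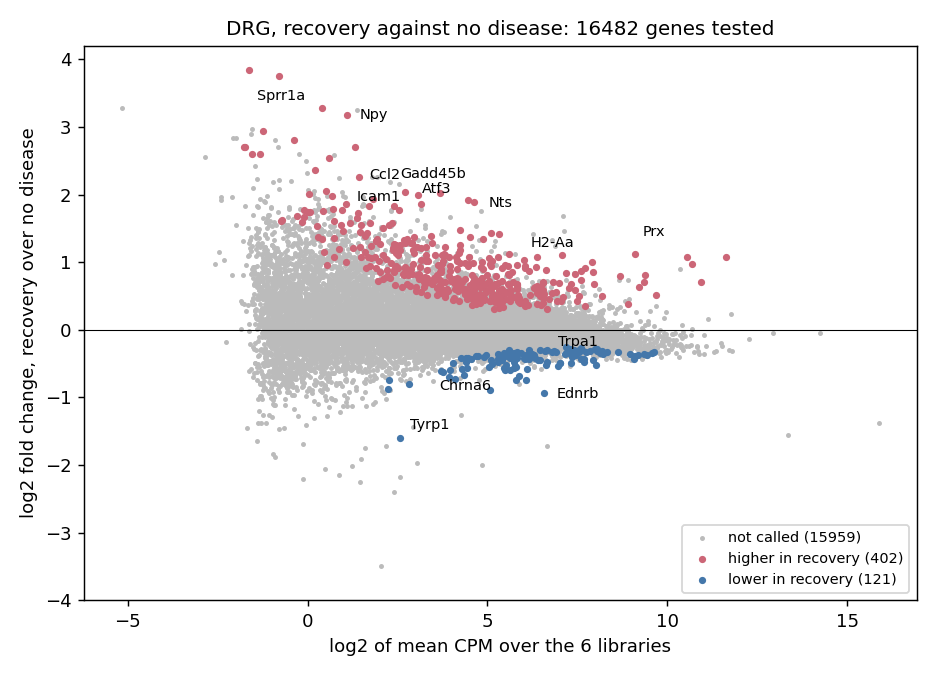
Log2 fold change of recovery over no disease against the log2 mean CPM of the 6 libraries, 1 point for each of the 16482 genes tested. The 402 genes called higher reach larger changes than the 121 called lower, and named points include Atf3, Nts and Prx among the rises and Ednrb, Chrna6 and Trpa1 among the falls.

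Neuronal injury genes were higher in recovery than with no disease. Of 21 such genes tested, 9 rose and 0 fell, against 2.44% and 0.734% of all genes tested, with a median log2 fold change of 0.56 against 0.0040 for all genes. Atf3 (ENSMUSG00000026628, GRCm38 chr1:191170296-191218039), the transcription factor that leads this response, stood at 8.78, 7.66 and 11.4 CPM in no disease replicates 1 to 3 and at 36.1, 34.1 and 35.1 CPM in recovery replicates 1 to 3. The 3 recovery libraries lay close together and above every no disease library, and recovery replicate 1 was the highest of them. The log2 fold change of Atf3 was 1.92 ± 0.25 (SE, n = 3 and 3; edgeR adjusted p = 0.0116), and 1.87 without recovery replicate 1. At peak disease Atf3 stood at 77.2, 156 and 144 CPM, above every recovery library.

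Nts (ENSMUSG00000019890, GRCm38 chr10:102481756-102490486) encodes the neuropeptide neurotensin. It stood at 11.1, 8.95 and 11.6 CPM with no disease and at 37.8, 39.5 and 40.5 CPM in recovery, and its log2 fold change was 1.90 ± 0.15 (SE; edgeR adjusted p = 0.00161). The recovery values lay within 3 CPM of each other, and recovery replicate 1 did not stand apart for this gene. Npy, which encodes neuropeptide Y, had 13, 6 and 4 reads with no disease and 100, 74 and 83 reads in recovery, or 0.701, 0.335 and 0.224 CPM against 5.12, 3.04 and 3.52 CPM. Its log2 fold change was 3.17 ± 0.56 (edgeR adjusted p = 0.0263). Sprr1a, a small proline-rich protein induced in regenerating sensory neurons, had 9, 1 and 3 reads with no disease and 66, 62 and 31 reads in recovery. Its log2 fold change was 3.29 ± 0.68 (edgeR adjusted p = 0.0335), which rests on few reads with no disease. In both genes recovery replicate 1 was the highest library of its group, and with it left out the log2 fold changes of Nts, Npy and Sprr1a were 1.90, 2.91 and 2.96.

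The other called injury genes were Cckbr, Ecel1, Star, Csf1 and Stmn4, with log2 fold changes of 0.56 to 2.81. Csf1, the macrophage growth factor that injured sensory neurons release, was chosen for mention after its values were seen. It stood at 12.6, 11.4 and 11.4 CPM with no disease and at 24.4, 24.3 and 23.0 CPM in recovery, which do not overlap (log2 fold change 1.02 ± 0.15, edgeR adjusted p = 0.0174, and a log2 fold change of 0.99 without recovery replicate 1). At peak disease its libraries stood at 24.3, 37.6 and 26.6 CPM. Gal, the galanin precursor, did not pass the test, with 11.6, 11.6 and 9.88 CPM with no disease and 8.24, 10.7 and 11.3 CPM in recovery (log2 fold change -0.13 ± 0.17, edgeR adjusted p = 0.692, and -0.03 without recovery replicate 1). Of the 21 genes 16 had recovery libraries all above the no disease libraries, against 13.7% of all genes, and 9 were called higher without recovery replicate 1, against 10.5% of all genes, with a median log2 fold change of 0.44. Left out in turn, recovery replicates 2 and 3 left 2 and 1 of them called and no disease replicates 1, 2 and 3 left 1, 1 and 3; among the 4 named by rule, Sprr1a, Npy, Atf3 and Nts, the edgeR adjusted p ran from 0.0122 to 0.141 over these 5 fits.

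The promoter windows of Nts and Sprr1a are shown because these were the injury genes that rose and hold an AP-1 motif, the site of Jun, Fos and Atf3 family dimers. Each is the 250 bases before the RefSeq start on GRCm38.p6, read 5′ to 3′ on the gene's own strand, with the motif TGANTCA in capitals, searched on both strands. The Nts window is chr10:102490419-102490668 and the Sprr1a window chr3:92485882-92486131, both on the minus strand.
Nts: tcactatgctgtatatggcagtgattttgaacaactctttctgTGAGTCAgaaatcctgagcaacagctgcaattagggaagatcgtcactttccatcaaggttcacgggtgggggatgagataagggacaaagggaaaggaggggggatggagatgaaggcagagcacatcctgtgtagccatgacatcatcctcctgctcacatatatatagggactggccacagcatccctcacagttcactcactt
Sprr1a: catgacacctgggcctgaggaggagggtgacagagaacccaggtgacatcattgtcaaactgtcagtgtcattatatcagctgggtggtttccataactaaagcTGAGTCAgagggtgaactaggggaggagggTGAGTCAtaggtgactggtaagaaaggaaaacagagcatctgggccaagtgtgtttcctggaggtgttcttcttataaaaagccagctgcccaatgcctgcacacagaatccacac
The motif lies 207 bases before the RefSeq start in Nts, and 146 and 116 bases before it in Sprr1a. The GENCODE starts of Nts and Sprr1a, at 102490486 and 92485895, lie inside these windows, so the distances hold for the RefSeq start only. Of the 7 injury genes that rose and have a window, 2 held the motif, against 7.82% of 27025 genes with a window, and 0 held a CRE motif, TGACGTCA, against 1.77% of all genes. A match is a description of the letters, and no binding was measured.

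Fewer genes of sensory neuron identity and excitability passed the test, and all that did were lower in recovery. Of 16 sensory channel genes 2 fell, of 12 nonpeptidergic and itch genes 2 fell, of 11 neurotrophic receptor genes 1 fell, and 0 rose in any of these lists, against 0.734% of all genes lower. With recovery replicate 1 left out, 14, 7 and 7 genes of the same lists were lower, against 11.2% of all genes. Recovery replicate 1 was not low for the sensory channel and neurotrophic receptor lists as a whole. Their sums in it were 4891 and 3809 CPM, against 4385 to 4854 and 3213 to 3683 CPM with no disease. The nonpeptidergic and itch list summed to 544 CPM in that library, against 582 to 645 CPM with no disease. Trpa1 (ENSMUSG00000032769, GRCm38 chr1:14872648-14918862), the irritant-gated channel of nociceptors, stood at 103, 101 and 99.5 CPM with no disease and at 73.6, 72.4 and 76.0 CPM in recovery. Every recovery library lay below every no disease library, with a log2 fold change of -0.45 ± 0.06 (SE; edgeR adjusted p = 0.0139). Kcns3, a modulatory potassium channel subunit, stood at 72.5, 74.1 and 75.1 CPM with no disease and 55.8, 52.0 and 57.4 CPM in recovery (log2 fold change -0.42 ± 0.07, edgeR adjusted p = 0.0204). The itch class receptors Cysltr2 for leukotrienes and Il31ra for interleukin 31 fell by 0.63 ± 0.12 and 0.44 ± 0.10 on the log2 scale (edgeR adjusted p = 0.0300 and 0.0383). Osmr, the oncostatin M receptor subunit that pairs with Il31ra, fell by 0.30 ± 0.07 (edgeR adjusted p = 0.0494). Il31ra and Osmr stood at 39.6 to 42 CPM and 92.1 to 103 CPM at peak disease, around their no disease levels of 37.6 to 44.3 CPM and 96.3 to 100.1 CPM. All 3 recovery libraries were low for these 5 genes, recovery replicate 1 included, and the groups did not overlap. Trpa1, Kcns3, Cysltr2, Il31ra and Osmr had log2 fold changes of -0.47, -0.46, -0.64, -0.52 and -0.37 without that library. Of the 5 genes, Trpa1 kept its call without no disease replicate 3, and the edgeR adjusted p of the 5 otherwise ran up to 0.196 when a library other than recovery replicate 1 was left out.

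Of the 12 largest falls 3 were genes of ligand-gated channel subunits, a grouping made after the ranking was seen. Chrna6 (ENSMUSG00000031491), a nicotinic acetylcholine receptor subunit, stood at 71.5, 79.6 and 65.4 CPM with no disease and at 46.1, 42.9 and 46.1 CPM in recovery. The recovery libraries lay together below all no disease libraries, with a log2 fold change of -0.68 ± 0.08 (edgeR adjusted p = 0.0116), and they were close to the peak disease libraries at 44.3, 40.5 and 42.5 CPM. Htr3b, a serotonin-gated channel subunit, stood at 20.7, 18.1 and 17.5 CPM with no disease and at 11.8, 10.9 and 12.1 CPM in recovery, a log2 fold change of -0.70 ± 0.11 (edgeR adjusted p = 0.0182). Gabrb2, a GABA-A receptor subunit, fell by 0.73 ± 0.13 (edgeR adjusted p = 0.0267). Without the libraries other than recovery replicate 1 the adjusted p of Chrna6 ran from 0.0327 to 0.0727, and Htr3b and Gabrb2 reached 0.0972 and 0.134. The log2 fold changes of Chrna6, Htr3b and Gabrb2 were -0.72, -0.73 and -0.89 without recovery replicate 1.

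Many other neuronal genes were low in recovery replicates 2 and 3, and many of these were less low or not low in replicate 1. Of 14 pan-neuronal, 12 axon cytoskeleton, 13 touch and proprioceptor and 7 peptidergic nociceptor genes 0 were called in the fit of all libraries, with median log2 fold changes of -0.26, -0.22, -0.22 and -0.28. Without recovery replicate 1, 10, 9, 9 and 3 of them were called lower, against 11.2% of all genes. Among the 14 pan-neuronal genes 5 had every recovery library, replicate 1 included, below every no disease library, against 12.8% of all genes. The peptidergic list did not split by replicate in this way. Its summed level was 1917 to 2174 CPM with no disease. In recovery it was 1634 CPM in replicate 1 and 1704 to 1712 CPM in replicates 2 and 3. Nefh, the heavy neurofilament of large myelinated neurons, stood at 1643, 1276 and 1570 CPM with no disease and at 1787, 936 and 1008 CPM in recovery. Replicate 1 was the highest of the 6 libraries and replicates 2 and 3 the lowest, with a log2 fold change of -0.27 ± 0.22 (edgeR adjusted p = 0.511) and of -0.65 without replicate 1 (edgeR adjusted p = 0.0072). Scn8a, a sodium channel of nodes of Ranvier chosen for mention after its values were seen, had the same pattern at 155, 126 and 122 CPM with no disease and 194, 85.5 and 76.3 CPM in recovery. Map1b, an axonal microtubule-associated protein, stood at 5578, 5159 and 4823 CPM with no disease and at 7401, 3434 and 3353 CPM in recovery, and Piezo2, the mechanically gated channel of touch, at 600, 598 and 527 against 702, 407 and 396 CPM. With recovery replicate 1 left out, the log2 fold changes of Scn8a, Map1b and Piezo2 were -0.76, -0.64 and -0.54.

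Among the neuronal class markers, Calca, the precursor of the peptide CGRP, stood at 1275, 1112 and 1254 CPM with no disease and at 938, 1027 and 1018 CPM in recovery, lower in every recovery library but not past the threshold (log2 fold change -0.29 ± 0.10, edgeR adjusted p = 0.116). Scn10a, the nociceptor sodium channel, had a log2 fold change of -0.24 ± 0.18 (edgeR adjusted p = 0.464), and Pvalb, the calcium buffer of proprioceptors, of -0.47 ± 0.23 (edgeR adjusted p = 0.261). Pvalb stood at 50.6, 39.8 and 72.0 CPM with no disease and at 45.3, 36.8 and 35.3 CPM in recovery, which overlap, and at 23.4, 13.0 and 16.3 CPM at peak. The log2 fold changes of Calca, Scn10a and Pvalb without recovery replicate 1 were -0.27, -0.50 and -0.61. In bulk tissue a lower level of a neuronal gene cannot be told apart from fewer neurons or from more RNA of other cells. The summed level of the 14 pan-neuronal genes was 8118 to 9013 CPM with no disease, 8298 CPM in recovery replicate 1 and 6571 to 7005 CPM in replicates 2 and 3, and the part of this shift in the single-gene values was not tested.

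**Figure D4:**
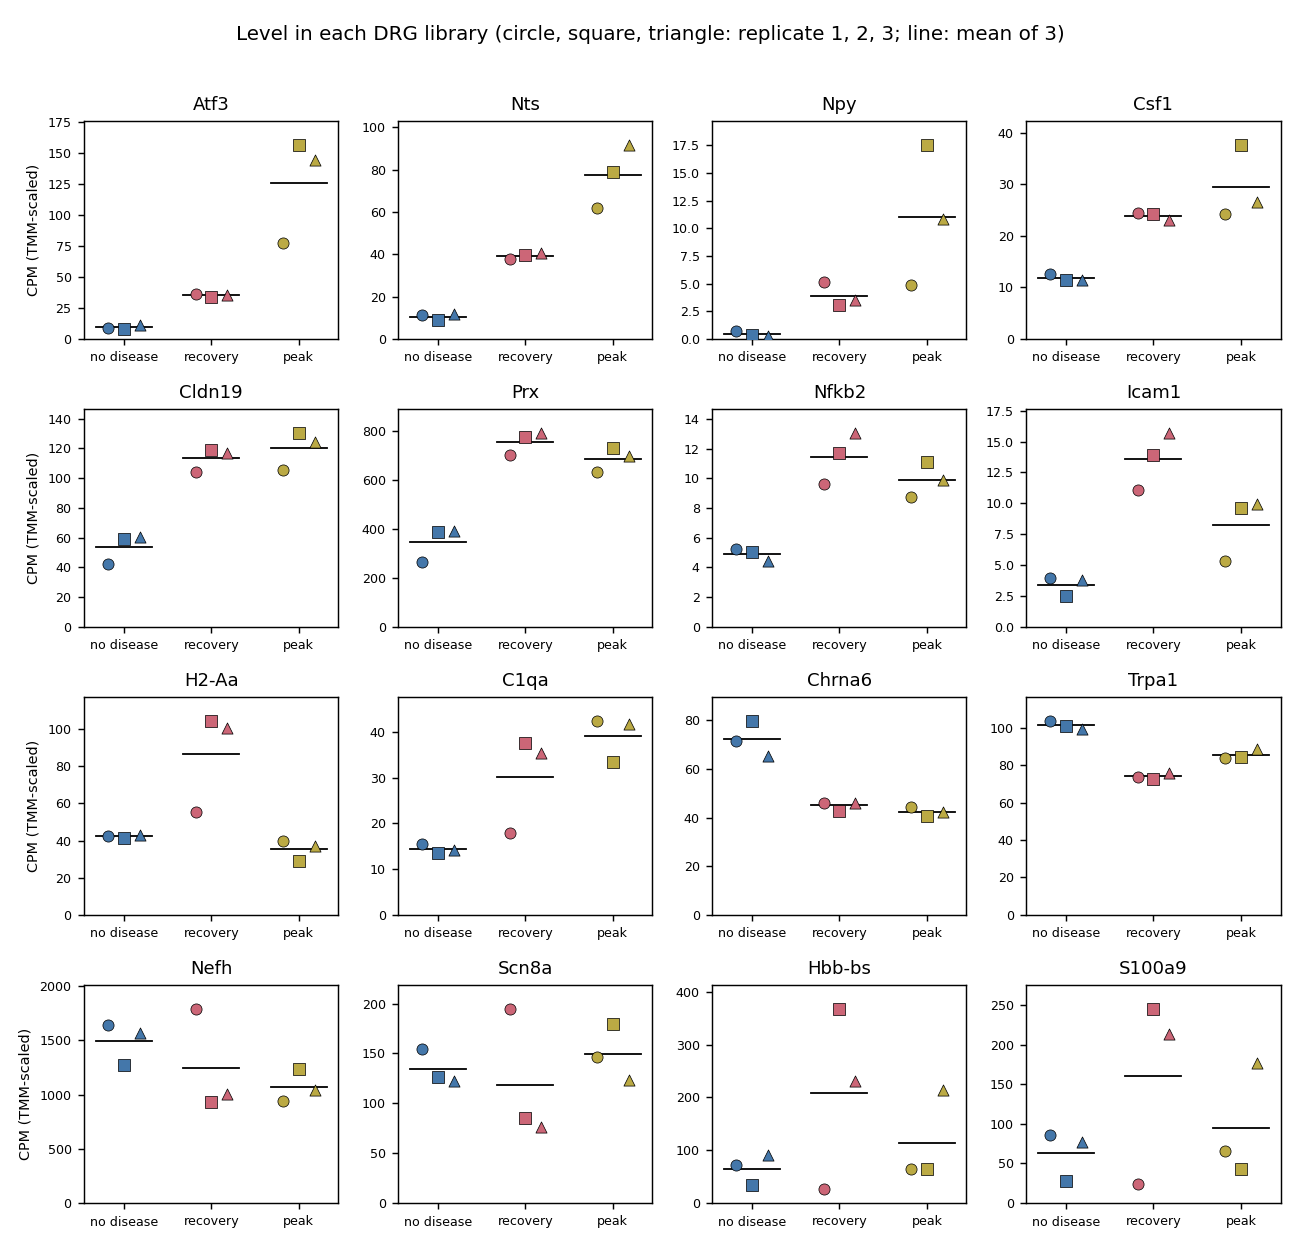
Level in CPM of 16 genes in each of the 9 DRG libraries, with the stages on the x axis, replicates 1 to 3 as circle, square and triangle, and the mean of 3 libraries as a line. Atf3, Nts, Csf1, Chrna6 and Trpa1 have 3 recovery libraries close together, whereas Nefh, Scn8a, H2-Aa, C1qa, Hbb-bs and S100a9 have recovery replicate 1 nearer to the no disease libraries than to recovery replicates 2 and 3.

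Peripheral myelin genes were higher in recovery. Of 19 genes tested 14 rose and 0 fell, against 2.44% and 0.734% of all genes, with a median log2 fold change of 0.95 against 0.0040, and all 19 were called higher without recovery replicate 1, against 10.5% of all genes. Prx (ENSMUSG00000053198, GRCm38 chr7:27499324-27520214), the periaxin scaffold of myelinating Schwann cells, stood at 264, 388 and 393 CPM with no disease and at 703, 777 and 792 CPM in recovery. Every recovery library, replicate 1 included, lay above every no disease library, with a log2 fold change of 1.12 ± 0.14 (SE; edgeR adjusted p = 0.0116). Cldn19, the tight junction protein of myelin loops, stood at 42.1, 58.7 and 60.1 CPM with no disease and at 104, 119 and 117 CPM in recovery (log2 fold change 1.08 ± 0.14, edgeR adjusted p = 0.0116). Gjb1, the gap junction protein of myelin incisures, rose by 1.10 ± 0.23 (edgeR adjusted p = 0.0341).

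No disease replicate 1 was the lowest library for all 3 of these genes, and recovery replicate 1 was the lowest recovery library for each. With that library left out, the log2 fold changes of Prx, Cldn19 and Gjb1 were 1.15, 1.11 and 1.23. At peak disease Prx stood at 632, 731 and 697 CPM and Cldn19 at 105, 130 and 125 CPM, near the recovery values. Among the 5 genes of the list that did not pass with all libraries, Cnp, which central myelin shares, had a log2 fold change of 0.52 and Egr2, the transcription factor of myelination, of 0.43, and of 0.68 and 0.56 without recovery replicate 1. Leaving out recovery replicate 2 or 3 left 0 genes of the list called, and leaving out no disease replicates 1, 2 and 3 in turn left 1, 0 and 6, and the edgeR adjusted p of Prx, Cldn19 and Gjb1 ran from 0.0290 to 0.155. The median log2 fold change of the list ran from 0.78 to 1.08 over the 6 libraries left out. Of the 11 myelin genes that rose and have a RefSeq window, 0 held the EGR motif GCGNGGGCG, against 5.33% of all genes, and 2 held the short SOX motif ACAANG, against 39.89%.

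Fewer Schwann cell genes outside myelin passed the test. Sox10, the transcription factor of the Schwann lineage, stood at 39.3, 34.0 and 36.5 CPM with no disease and at 56.6, 60.5 and 59.4 CPM in recovery, with every recovery library higher (log2 fold change 0.68 ± 0.15, edgeR adjusted p = 0.0431, and 0.69 without recovery replicate 1). It was the only 1 of 9 Schwann identity genes to rise, against 2.44% of all genes, and 4 of the 9 were called without recovery replicate 1, against 10.5%. Of the 9 genes 7 had a log2 fold change above 0, and the median was 0.20. Every recovery library lay above every no disease library for 5 of the 9, against 13.7% of all genes. The members below 0 were S100b, with a log2 fold change of -0.06, and Cdh19, of -0.10. Without recovery replicate 1 their values were -0.07 and -0.04. Of 10 repair Schwann cell genes tested 0 were called, with a median log2 fold change of -0.07, and without recovery replicate 1 3 were lower, Ngfr, Ncam1 and Cdh2, which sensory neurons also express, against 11.2% of all genes. Without each library other than recovery replicate 1, 0 Schwann identity genes were called, and the adjusted p of Sox10 ran from 0.122 to 0.170. Of 22 sterol synthesis genes, which supply cholesterol to growing myelin, 0 were called, with a median of -0.08, and without recovery replicate 1 3 were lower, against 11.2% of all genes. For 8 of the 22 every recovery library lay below every no disease library, against 12.8% of all genes. The list summed to 3413 to 3468 CPM with no disease and 3106 to 3308 CPM in recovery, which do not overlap.

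Of 8 satellite glia genes 1 fell, against 0.734% of all genes. All 8 had a log2 fold change below 0, with a median of -0.39, and 4 had every recovery library below every no disease library, against 12.8% of all genes. The summed level of the 8 genes overlapped between the groups, at 2106 to 2535 CPM with no disease and 1825 to 2437 CPM in recovery. Ednrb (ENSMUSG00000022122, GRCm38 chr14:103814625-103844402), an endothelin receptor of these cells, stood at 146, 105 and 123 CPM with no disease and at 67.0, 70.9 and 57.7 CPM in recovery. The groups stood well apart and recovery replicate 1 lay between the other recovery libraries, with a log2 fold change of -0.93 ± 0.12 (edgeR adjusted p = 0.0116), and of -0.98 without that library. At peak disease Ednrb stood at 94.4, 92.0 and 95.3 CPM, between those groups. Slc1a3, a glutamate transporter, and Kcnj10, an inward rectifier potassium channel, had recovery libraries all below no disease but did not pass, with log2 fold changes of -0.47 ± 0.14 and -0.41 ± 0.14 (edgeR adjusted p = 0.0926 and 0.128), and -0.42 and -0.59 without recovery replicate 1. With that library left out 3 of the 8 were lower, against 11.2% of all genes, and the adjusted p of Ednrb ran from 0.0264 to 0.0727 over the other 5 libraries left out, past the threshold without no disease replicates 2 and 3.

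Genes of the NF-kB pathway and its targets were higher in recovery, and 11 of 13 had every recovery library, replicate 1 included, above every no disease library, against 13.7% of all genes. This list was chosen after values of these data were seen, so its count describes the genes and supports nothing by itself: 9 of 13 rose and 0 fell, against 2.44% and 0.734% of all genes, with a median log2 fold change of 0.94. Icam1 (ENSMUSG00000037405, GRCm38 chr9:21015985-21028817), the adhesion molecule that leukocytes bind, stood at 3.93, 2.52 and 3.76 CPM with no disease and at 11.1, 13.9 and 15.7 CPM in recovery. Its recovery libraries lay above every no disease library and above the peak disease libraries at 5.29, 9.59 and 9.92 CPM, with a log2 fold change over no disease of 1.99 ± 0.26 (edgeR adjusted p = 0.0116). Ccl2, the monocyte chemokine, had 13, 17 and 20 reads with no disease and 60, 101 and 143 reads in recovery (log2 fold change 2.26 ± 0.34, edgeR adjusted p = 0.0176). Tnfaip2 stood at 1.62, 1.17 and 1.57 CPM with no disease and at 4.10, 6.53 and 6.14 CPM in recovery (log2 fold change 1.94 ± 0.25, edgeR adjusted p = 0.0116). The log2 fold changes of Icam1, Ccl2 and Tnfaip2 were 2.09, 2.43 and 2.09 without recovery replicate 1.

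The noncanonical pathway subunit Relb stood at 3.99, 4.36 and 4.71 CPM with no disease and at 9.21, 12.2 and 12.4 CPM in recovery (log2 fold change 1.37 ± 0.25, edgeR adjusted p = 0.0268). Its partner Nfkb2 stood at 5.23, 5.03 and 4.43 CPM with no disease and at 9.62, 11.7 and 13.0 CPM in recovery (log2 fold change 1.23 ± 0.15, edgeR adjusted p = 0.0116). Nfkb2 and Rel were chosen for mention after their values were seen. Nfkbia, which encodes the inhibitor that NF-kB itself induces, did not pass, with a log2 fold change of 0.42 ± 0.21 (edgeR adjusted p = 0.283). With recovery replicate 1 left out, the log2 fold changes of Relb, Nfkb2 and Nfkbia were 1.47, 1.31 and 0.51. Gadd45b (ENSMUSG00000015312, GRCm38 chr10:80930073-80932204), a stress gene outside the list, had 1 of the largest rises at 5.17, 5.54 and 4.54 CPM with no disease against 14.7, 25.2 and 22.3 CPM in recovery (log2 fold change 2.03 ± 0.21, edgeR adjusted p = 0.00965, and 2.20 without recovery replicate 1). Of the 13 listed genes 11 were called without recovery replicate 1, against 10.5% of all genes, 0 without recovery replicate 2 or 3 and 0, 0 and 3 without no disease replicates 1, 2 and 3, and the edgeR adjusted p of Icam1, Ccl2, Tnfaip2 and Relb ran from 0.0456 to 0.134 over those 5 fits. For Gadd45b it ran from 0.0327 to 0.0645, above the threshold without no disease replicates 1 and 2.

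The windows of Nfkb2 and Rel are shown because both genes rose and hold a kB motif close to the start. They were read as above on GRCm38.p6, at chr19:46304487-46304736 on the plus strand for Nfkb2 and chr11:23770970-23771219 on the minus strand for Rel. Of the 3 windows of Nfkb2, the window shown was picked because it holds the most kB matches. The kB motif, GGG then NNTTN then CC, is in capitals, searched on both strands, and overlapping matches run together.
Nfkb2: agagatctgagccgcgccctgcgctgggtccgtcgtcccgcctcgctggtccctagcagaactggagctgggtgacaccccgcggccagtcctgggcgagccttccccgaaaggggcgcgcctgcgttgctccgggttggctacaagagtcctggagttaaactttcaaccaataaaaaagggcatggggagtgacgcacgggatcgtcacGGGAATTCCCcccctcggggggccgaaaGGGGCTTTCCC
Rel: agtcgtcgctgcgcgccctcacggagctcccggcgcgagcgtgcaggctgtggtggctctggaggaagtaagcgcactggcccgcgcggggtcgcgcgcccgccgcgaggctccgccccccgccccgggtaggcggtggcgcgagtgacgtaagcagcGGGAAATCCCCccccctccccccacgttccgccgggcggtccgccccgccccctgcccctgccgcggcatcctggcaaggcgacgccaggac
The matches begin 39, 11 and 10 bases before the start in Nfkb2, the last pair overlapping, and 92 and 91 bases before it in Rel, also overlapping. Of the 6 listed genes that rose and have a window 3 held the kB motif, against 4.71% of 27025 genes, and 3 held the AP-1 motif, against 7.82%. The list holds genes known as kB targets, so a motif there is a property of how it was chosen.

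Genes of the basement membrane, the sheet that Schwann cells and vessels lay down, were higher in recovery. This list was also chosen after values were seen: 8 of 13 rose and 0 fell, against 2.44% of all genes higher, with a median log2 fold change of 0.51. Hspg2 (ENSMUSG00000028763), which encodes perlecan, stood at 112, 149 and 147 CPM with no disease and at 244, 243 and 261 CPM in recovery (log2 fold change 0.87 ± 0.13, edgeR adjusted p = 0.0174). Recovery replicate 1 lay with the other recovery libraries, above every no disease library. Lama5, a laminin chain, rose by 0.99 ± 0.14 (edgeR adjusted p = 0.0174), Col4a2, a collagen IV chain whose exons overlap those of Col4a1, by 0.69 ± 0.11, and Dag1, the dystroglycan receptor of laminin, by 0.62 ± 0.10 (edgeR adjusted p = 0.0187 for both). The log2 fold changes of Hspg2, Lama5, Col4a2 and Dag1 were 0.86, 1.02, 0.70 and 0.58 without recovery replicate 1, and 12 of the 13 genes were called, against 10.5% of all genes. The list gave fewer calls without the other libraries: without recovery replicates 2 and 3 in turn 0 and 0, and without no disease replicates 1, 2 and 3 in turn 0, 0 and 2, with the edgeR adjusted p of these 4 genes between 0.0327 and 0.102 in those 5 fits.

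Of 17 fibroblast matrix genes 6 rose and 0 fell, against 2.44% and 0.734% of all genes, with a median log2 fold change of 0.69. Col5a1, a fibril collagen chain whose exons overlap other genes of the table, stood at 41.3, 49.7 and 47.6 CPM with no disease and at 76.1, 87.5 and 96.9 CPM in recovery (log2 fold change 0.91 ± 0.10, edgeR adjusted p = 0.0116). Postn, which encodes periostin, rose by 0.88 ± 0.14 (edgeR adjusted p = 0.0204), Thbs2, a thrombospondin, by 0.76 ± 0.16 (edgeR adjusted p = 0.0347) and Tnc, tenascin C, by 1.22 ± 0.24 (edgeR adjusted p = 0.0289). Dcn and Col3a1, the decorin and collagen III genes, did not pass, with a log2 fold change of 0.36 for both and with recovery replicate 1 at 584 and 269 CPM, below every no disease library in both. The log2 fold changes of Col5a1, Postn, Thbs2 and Tnc were 0.97, 0.96, 0.90 and 1.10 without recovery replicate 1, and those of Dcn and Col3a1 0.58 and 0.53. With that library left out 7 of the 17 were called, against 10.5% of all genes, without recovery replicates 2 and 3 in turn 0 and 1, and without no disease replicates 1, 2 and 3 in turn 0, 0 and 1, with the edgeR adjusted p of the 4 named genes between 0.0327 and 0.159. Of 12 endothelial and pericyte genes 2 rose, against 2.44% of all genes: Cldn5, the tight junction protein of vessels, by 1.10 ± 0.19 (edgeR adjusted p = 0.0263) and Kdr, a VEGF receptor, by 0.48 ± 0.11 (edgeR adjusted p = 0.0494). Cldn5 stood at 8.14, 7.88 and 11 CPM with no disease, at 15.7, 18.8 and 23.3 CPM in recovery and at 8.17, 11.5 and 8.23 CPM at peak. Cldn5 and Kdr had log2 fold changes of 1.20 and 0.51 without recovery replicate 1. With that library left out 5 endothelial and pericyte genes were called, against 10.5% of all genes, 1 without no disease replicate 3 and 0 without each of the other 4 libraries, where the adjusted p of Cldn5 and Kdr reached 0.197.

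Macrophage genes were higher in recovery, most of all in recovery replicates 2 and 3. Of 21 genes tested 11 rose and 0 fell, against 2.44% of all genes higher, with a median log2 fold change of 1.08, and 19 were called without recovery replicate 1, against 10.5% of all genes. Their summed level was 278 to 293 CPM with no disease, 330 CPM in recovery replicate 1 and 681 to 692 CPM in replicates 2 and 3. Trem2 (ENSMUSG00000023992, GRCm38 chr17:48346401-48354147), a lipid receptor of phagocytes, stood at 1.35, 1.45 and 0.954 CPM with no disease and at 3.17, 4.15 and 4.57 CPM in recovery (log2 fold change 1.66 ± 0.23, edgeR adjusted p = 0.0140). Cd68, a lysosomal protein of macrophages, stood at 1.35, 2.29 and 1.40 CPM with no disease and at 2.92, 5.34 and 6.73 CPM in recovery (log2 fold change 1.58 ± 0.34, edgeR adjusted p = 0.0392). In both genes recovery replicate 1 was the lowest recovery library yet above every no disease library, and the peak disease libraries, at 7.50 to 9.84 CPM for Trem2 and 6.29 to 10.6 CPM for Cd68, were above every recovery library for Trem2 and above recovery replicates 1 and 2 for Cd68.

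Ms4a7 and Aif1 rose by 1.54 ± 0.25 and 1.45 ± 0.32 on the log2 scale (edgeR adjusted p = 0.0204 and 0.0417). C1qa, a complement subunit chosen for mention after its values were seen, stood at 15.5, 13.6 and 14.2 CPM with no disease and at 17.9, 37.5 and 35.4 CPM in recovery (log2 fold change 1.07 ± 0.23, edgeR adjusted p = 0.0392), so its rise lay mainly in 2 of 3 libraries. With recovery replicate 1 left out, the log2 fold changes of Trem2, Cd68, Ms4a7, Aif1 and C1qa were 1.77, 1.82, 1.72, 1.66 and 1.31. The scavenger receptor Cd163, a marker of resident macrophages, was the 1 member with a log2 fold change below 0, at -0.44 ± 0.36 (edgeR adjusted p = 0.507), and -0.22 without recovery replicate 1. Without recovery replicates 2 and 3 in turn 0 and 0 macrophage genes were called, and without no disease replicates 1, 2 and 3 in turn 0, 0 and 1. The adjusted p of Trem2, Cd68, Ms4a7 and Aif1 ran from 0.0498 to 0.178 in those fits. Also among the largest rises, C3 of complement and Mpeg1, the macrophage pore-forming protein, rose by 1.48 ± 0.22 and 1.43 ± 0.26 (edgeR adjusted p = 0.0176 and 0.0268, up to 0.0960 and 0.127 with another library left out), and in both recovery replicate 1 was the lowest recovery library, at 17.2 and 29.8 CPM against 31.0 to 35.7 and 58.9 to 61.1 CPM. C3 and Mpeg1 had log2 fold changes of 1.70 and 1.67 without that library.

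Antigen presentation genes were higher in recovery. The MHC class II chain genes H2-Aa, H2-Ab1 and H2-Eb1 were not higher at peak disease by level, which was not tested. Of 13 genes 7 rose and 0 fell, against 2.44% and 0.734% of all genes, with a median log2 fold change of 0.93. Without recovery replicate 1 11 were called higher, against 10.5% of all genes. H2-Aa (ENSMUSG00000036594, GRCm38 chr17:34282744-34287823), an MHC class II chain, stood at 42.6, 41.3 and 43.0 CPM with no disease and at 55.5, 104 and 101 CPM in recovery (log2 fold change 1.04 ± 0.21, edgeR adjusted p = 0.0313). Recovery replicate 1 lay between the no disease libraries and the other recovery libraries, and the peak disease libraries stood at 39.9, 29.1 and 37.1 CPM, each below every no disease library. H2-Ab1 and H2-Eb1 rose by 0.94 ± 0.19 and 0.94 ± 0.20 (edgeR adjusted p = 0.0335 and 0.0345), and Ciita, the transcriptional switch of class II genes whose exons overlap those of Dexi, by 1.27 ± 0.24 (edgeR adjusted p = 0.0281). At peak disease H2-Ab1 and H2-Eb1 also lay below every no disease library, but Ciita lay above every one. Ciita stood at 1.72, 2.80 and 2.58 CPM with no disease and at 3.95, 4.30 and 3.23 CPM at peak. The nonclassical class I genes H2-Q6 and H2-Q7, near-identical copies among which reads may be split, were among the largest rises at 2.03 ± 0.26 and 1.83 ± 0.23 (edgeR adjusted p = 0.0116 for both, up to 0.0735 with another library left out). Without each library other than recovery replicate 1, 0 of the 13 were called, and the edgeR adjusted p of H2-Aa, H2-Ab1, H2-Eb1 and Ciita ran from 0.0817 to 0.159. With recovery replicate 1 left out, the log2 fold changes of H2-Aa, H2-Ab1, H2-Eb1 and Ciita were 1.25, 1.15, 1.15 and 1.41, and those of H2-Q6 and H2-Q7 2.23 and 1.95.

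Interferon-stimulated genes varied within both stages. Of 15 tested 1 rose, against 2.44% of all genes, and all 15 had a log2 fold change above 0, with a median of 0.70. Every recovery library lay above every no disease library for 3 of the 15, against 13.7% of all genes. Without recovery replicate 1 7 were called, against 10.5% of all genes. Isg15 stood at 3.18, 1.96 and 1.51 CPM with no disease and at 3.89, 6.24 and 8.77 CPM in recovery (log2 fold change 1.51 ± 0.35, edgeR adjusted p = 0.0494, and 0.109 to 0.173 with a library other than recovery replicate 1 left out). By the mean over the list, no disease replicate 1 was the highest no disease library, 0.48 above the no disease mean on the log2 scale, and recovery replicate 3 the highest recovery library, 1.33 above it. Ifi47, an interferon-inducible GTPase gene whose exons overlap Olfr56, rose by 1.86 ± 0.41 (edgeR adjusted p = 0.0415, up to 0.169 with another library left out). Isg15 and Ifi47 had log2 fold changes of 1.73 and 2.09 without recovery replicate 1.

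**Figure D5:**
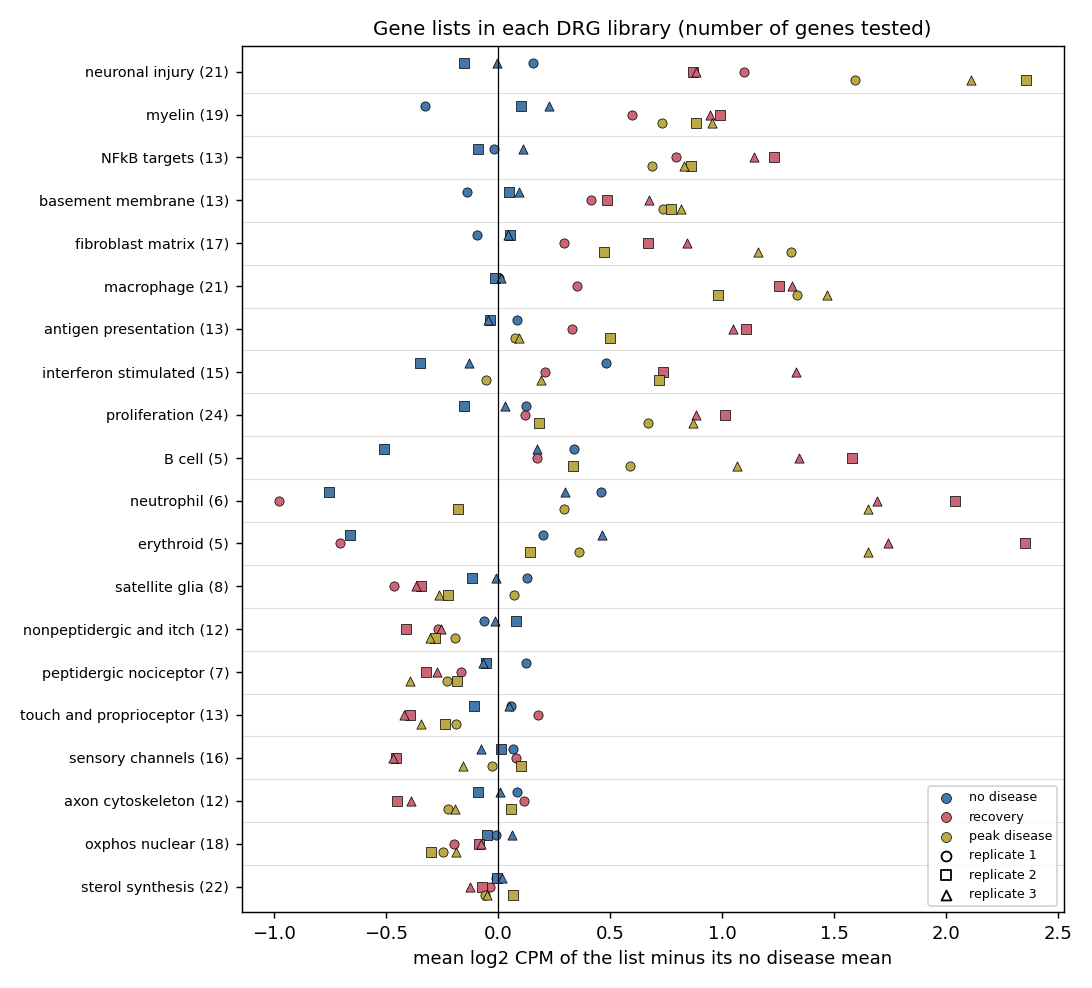
Mean log2 CPM of the main gene lists in each of the 9 DRG libraries, as the difference from the mean of the 3 no disease libraries, with the number of genes tested in brackets, stages in colour and replicates by marker shape. Injury, myelin, NF-kB and basement membrane lists have 3 recovery libraries above 0.4, whereas for the erythroid and neutrophil lists recovery replicate 1 lies below the no disease mean and replicates 2 and 3 at least 1.69 above it.

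Markers of blood cells moved together with recovery replicates 2 and 3. The 5 erythroid genes summed to 55.1 to 139 CPM with no disease, 47.6 CPM in recovery replicate 1 and 356 to 549 CPM in replicates 2 and 3, and the 6 neutrophil genes to 54.2 to 160, 44.2 and 408 to 471 CPM. In the fit of all libraries 0 of 5 erythroid, 0 of 6 neutrophil, 0 of 5 B cell and 0 of 4 T and NK cell genes were called by edgeR at an adjusted p under 0.05. Without recovery replicate 1 5 of 5 erythroid, 4 of 6 neutrophil, 3 of 5 B cell and 4 of 8 T and NK cell genes tested were higher, against 10.5% of all genes. Hbb-bs, an adult beta globin gene with a near-identical copy in Hbb-bt, stood at 71.5, 33.0 and 90.2 CPM with no disease and at 25.8, 367 and 231 CPM in recovery. S100a9, a neutrophil calcium-binding protein, stood at 85.6, 27.5 and 77.6 CPM with no disease and at 23.2, 245 and 213 CPM in recovery. Peak disease replicate 3 was high as well, at 213 CPM for Hbb-bs and 177 CPM for S100a9, while peak replicates 1 and 2 lay at 42.2 to 66.2 CPM for both. Jchain, which joins the antibody chains that plasma cells secrete, passed with all libraries, at 3.61, 2.07 and 1.96 CPM with no disease and 4.15, 9.89 and 8.77 CPM in recovery (log2 fold change 1.58 ± 0.34, edgeR adjusted p = 0.0368, up to 0.167 with another library left out). The log2 fold changes of Hbb-bs, S100a9 and Jchain were 2.18, 1.82 and 1.84 with recovery replicate 1 left out. None of these genes was at 0 in all 6 libraries, and the part of blood cell content in the macrophage and antigen presentation values of replicates 2 and 3 was not tested.

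Genes of cell division were split in the same way between the recovery libraries. Of 24 proliferation genes 1 rose, against 2.44% of all genes, all 24 had a log2 fold change above 0 with a median of 0.70, and 14 were called without recovery replicate 1, against 10.5% of all genes. Mki67 stood at 19.9, 13.0 and 14.9 CPM with no disease and at 17.9, 50.4 and 39.2 CPM in recovery (log2 fold change 1.17 ± 0.36, edgeR adjusted p = 0.0945). Recovery replicate 1 lay among the no disease libraries. Cenpf, a kinetochore protein, stood at 2.80, 1.90 and 3.14 CPM with no disease and at 4.35, 11.7 and 10.8 CPM in recovery (log2 fold change 1.78 ± 0.40, edgeR adjusted p = 0.0435, and 0.106 to 0.181 with a library other than recovery replicate 1 left out). With that library left out, Mki67 and Cenpf had log2 fold changes of 1.47 and 2.08. Replication-dependent histone genes took 0.0345% to 0.0567% of counts with no disease, 0.0445% in recovery replicate 1 and 0.0965% and 0.109% in replicates 2 and 3. Ribosomal protein genes took 0.870% to 0.963%, 0.885% and 1.33% to 1.34% in the same order.

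Markers of other tissues in the dissection varied within both stages, and none of the lists below had a called gene in the fit of all libraries. The 8 meninges and perineurium genes summed to 151 to 314 CPM with no disease, 135 CPM in recovery replicate 1 and 402 to 692 CPM in replicates 2 and 3. All 8 had a log2 fold change above 0, with a median of 0.67, and 0 were called. Skeletal muscle genes summed to 310 CPM in the highest no disease library and 75.1 CPM in the highest recovery library, both replicate 3, against 4.15 to 8.84 CPM in the other 4, and 0 were called. The 7 central glia genes summed to 24.8 to 42.1 CPM. For 2 of the 4 tested, Aqp4 and Mobp, every recovery library lay below every no disease library, against 12.8% of all genes. Without recovery replicate 1 1 of the 4, Cldn11, was higher, against 10.5% of all genes, with a log2 fold change of 1.02. In that fit 0 genes of the meninges, muscle and adipocyte lists were called. The 7 adipocyte genes summed to 3.91 to 6.79 CPM with no disease and 6.36 to 12.3 CPM in recovery, which overlap. All 4 adipocyte genes tested had a log2 fold change above 0, with a median of 0.91. Of the 4 genes tested in each of the central glia and adipocyte lists 0 were called with all libraries.

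Few genes of the stress and metabolic lists passed the test. Of 11 immediate early genes 0 were called with or without recovery replicate 1 and 1 was higher without no disease replicate 3, and Fos stood at 9.86, 4.03 and 13.1 CPM with no disease and 6.09, 8.46 and 11.6 CPM in recovery. Of 12 integrated stress genes 0 were called, and without recovery replicate 1 5 were higher and 1, Asns, lower, against 10.5% and 11.2% of all genes. Of 13 lipid handling genes 0 were called, with a median log2 fold change of 0.0084 in all libraries. Without recovery replicate 1 2 of the 13 were higher, near the 10.5% of all genes. Apoe, the main lipid carrier of glia and macrophages, stood at 1510, 1174 and 1528 CPM with no disease and 1124, 1430 and 1579 CPM in recovery. The 18 nuclear genes of oxidative phosphorylation summed to 4059 to 4379 CPM with no disease and 3755 to 3885 CPM in recovery, which do not overlap. Of them 1 fell, against 0.734% of all genes, 8 had every recovery library below every no disease library, against 12.8%, and 3 were lower without recovery replicate 1, against 11.2%. Ndufs1, a complex I subunit whose exons overlap Eef1b2, fell by 0.27 ± 0.06 (edgeR adjusted p = 0.0497, and 0.121 to 0.193 with a library other than recovery replicate 1 left out), and by 0.33 without that library.

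The remaining large falls were single genes that were not grouped by cell type. Tyrp1 (ENSMUSG00000005994), a melanin synthesis enzyme, had the largest fall by the naming rule at 8.25, 10.1 and 8.25 CPM with no disease and 2.41, 2.63 and 3.73 CPM in recovery (log2 fold change -1.60 ± 0.23, edgeR adjusted p = 0.0164). All 3 recovery libraries were low, and the peak disease libraries stood at 8.30, 5.48 and 5.36 CPM. Tmem72, Necab2, Vldlr, Cadps2, Cdh10 and Epha7 fell by 0.60 to 0.90 on the log2 scale (edgeR adjusted p = 0.0116 to 0.0319), and in each the recovery libraries all lay below the no disease libraries. Tyrp1 had a log2 fold change of -1.50 without recovery replicate 1, and the other 6 fell by 0.67 to 1.02. Over the 12 largest falls, 7 kept their call without no disease replicate 3, 1 without no disease replicate 2 and 0 without no disease replicate 1 or recovery replicate 2 or 3, with adjusted p up to 0.151. Over the 12 largest rises, which end with Ddn, a dendritic protein gene whose exons overlap B130046B21Rik, at 1.42 ± 0.18 (edgeR adjusted p = 0.0116), the corresponding counts were 7 without no disease replicate 3, 2 without no disease replicate 2, 1 without no disease replicate 1, and 2 with either recovery replicate 2 or recovery replicate 3 left out.

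The authors' deposited table calls 756 genes higher and 126 lower in this comparison at q under 0.05. Of these, 374 and 66 were also called here in the same direction and 0 in the opposite direction, which is 84.1% of the calls made here and 49.9% of the calls in the authors' deposited table.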

How the data were processed

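Bulk RNA of DRG L3-L5 was sequenced after library preparation with a SMARTER mRNA kit, per the labels. The authors deposited raw read counts for 28684 Ensembl genes in each library, and a table of log2 ratios and q-values (adjusted p-values) for each comparison, per the file headers. Per the submitters' processing notes, the tools were STAR 2.6.1a, kallisto 0.44.0 and Bowtie2, and the builds GRCm38 and mm10. No source used here says what each tool did, how reads were counted, with which annotation or whether by strand, so reads of genes that overlap or have near-identical copies may be shared.

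One edgeR fit (version 4.0.16, R 4.3.3) covered the 9 DRG libraries, after filterByExpr at a minimum count of 10 and TMM scaling. The test was the quasi-likelihood F test, and adjusted p-values are Benjamini-Hochberg values over all 16482 genes tested. Levels are TMM-scaled CPM, and SE is the log2 fold change divided by the square root of F. Fold changes of genes with few reads depend on edgeR's prior count. For principal components a prior count of 2 was added before log2 CPM were taken. On simulated data with 16165 genes, the fit recovered 67.2% of 67 genes changed 1.5-fold and 98.5% of 67 changed 2-fold. It also made 10 false calls, 5.35% of its calls. The changed genes were drawn only from those above the median level, and no simulated library stood apart as recovery replicate 1 does. The shares recovered therefore do not cover genes of low level or a library that stands apart. Alternatives included limma 3.58.1 (voom) and DESeq2 1.42.0.

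The comparison, the 32 gene lists and 2 lists added later (NF-kB and basement membrane) were chosen with earlier results of these data known. Genes named are the 12 largest rises and 12 largest falls among called genes whose groups do not overlap and whose mean reaches 5 CPM, predicted genes excepted. To these were added up to 4 called members of each list with at least 1 CPM (or up to 3 abundant members), the 6 largest changes each way called only without recovery replicate 1, and 12 genes named in any case. A few genes that this rule names are not reported here. Any other gene given with a value was chosen after its values were seen. Positions are from GENCODE vM21 on GRCm38, in which 28578 of 28684 gene IDs were found, and promoter windows from RefSeq on GRCm38.p6.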

Additional observations from a re-analysis of the deposited data

How the results depend on the processing

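The counts of 402 genes higher and 121 lower stayed within 1.5 times with DESeq2's size factors in edgeR (387 and 125), limma-voom (341 and 131), a minimum of 10 counts (425 and 159) and ribosomal RNA genes left out (375 and 144). They were 897 and 564 with DESeq2, 182 and 34 with only the 6 libraries compared, 674 higher with no filter beyond 1 count (133 lower), and 76 lower with all 18 libraries (428 higher). With 1 library left out they ran from 2 to 1758 higher and from 0 to 1864 lower. Same-numbered libraries had correlations of their deviations from -0.329 to 0.281, so the numbers were not taken to pair the samples, and with the replicate number as a block 308 genes were higher and 66 lower. Of the 57 called genes named, 57 kept their call with DESeq2, 45 with limma-voom, 43 with the 6 libraries alone, 39 with all 18 libraries and 42 with the block. The ranges of adjusted p given above cover only libraries left out. For some genes, Trpa1, Chrna6, Il31ra, Kdr and Jchain among them, another alternative gave a higher adjusted p than any library left out.

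No called gene that is named changed direction under any alternative. Genes past no threshold in the main comparison did, and the cause was not tested. The Nr4a1 log2 fold change was 0.098 with limma-voom and 0.045 with the block. The Abca1 log2 fold change was -0.0052 with all 18 libraries and -0.00098 without ribosomal RNA genes. With 1 library left out, the log2 fold change ran from -0.30 to 0.53 for Nr4a1 (0.0027 without recovery replicate 1), from -0.11 to 0.066 for Abca1 (-0.044 without no disease replicate 3), from -0.16 to 0.076 for Apoe (0.010 and 0.029 without no disease replicates 1 and 3), from -0.64 to 0.056 for Map1b (0.044 without recovery replicate 2) and from -0.064 to 0.67 for Cldn1. It ran from -0.20 to 0.48 for Junb (-0.027 without recovery replicate 3), from -0.70 to 0.33 for Btg2, from -5.90 to 3.65 for Myh4, from -4.65 to 1.10 for Acta1 and from -4.93 to 1.41 for Atp2a1, where the values above 0 for Btg2 and the 3 muscle genes came without no disease replicate 3, the library with the most muscle reads.

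In simulated data with 3 libraries a stage, and with no library standing apart, 67.2% of 67 genes changed 1.5-fold were recovered. Those genes all lay above the median level. Counting error, prior count and shared reads limit genes with under about 1 CPM.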

Other observations

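Leaving out recovery replicate 1 brought in genes that the comparison of all libraries did not call. The 6 largest rises of that kind with at least 5 CPM were Hist1h3c, Hba-a1, Hbb-bs, Cxcl10, Hist1h2ak and Hist1h2bn. The histone genes are near-identical copies, so reads may be split among them. Hist1h3c stood at 3.50, 0.503 and 1.23 CPM with no disease and at 1.02, 11.9 and 10.9 CPM in recovery replicates 1, 2 and 3, with a log2 fold change of 2.67 without replicate 1 (edgeR adjusted p = 0.0069). Cxcl10, an interferon-induced chemokine whose exons overlap Art3, differed from the others in that recovery replicate 1 was also high, at 6.55 CPM against 1.12 to 3.31 CPM with no disease.

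The 6 largest falls of that kind were AY036118, Chrnb3, Grid1, Shank2, Cacng2 and Ryr2. Ryr2, a calcium release channel, stood at 136, 122 and 104 CPM with no disease and at 164, 70.3 and 62.6 CPM in recovery, so recovery replicate 1 was the highest of the 6 libraries and replicates 2 and 3 the lowest. Grid1 and Shank2, a glutamate receptor delta subunit and a synaptic scaffold, had log2 fold changes of -0.92 without replicate 1 (edgeR adjusted p = 0.0085 and 0.0345). AY036118 is a gene that holds ribosomal RNA reads, at 64366 to 120458 CPM with no disease and 30517 to 39376 CPM in recovery.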
